A study of Mus musculus with 2 samples.

Results

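The genes described here are 49 genes of the cell cycle and of DNA replication, taken by name from a list and sought among the 21853 protein-coding genes of the GENCODE M21 annotation of the mouse genome. All 49 were found. For each, the accessible regions that overlapped the 1000 bp on either side of a protein-coding transcript start were taken as promoter regions, and regions farther away were assigned to the gene whose start was nearest within 100 kb. This gave 83 regions at or near the genes, of 29415 in the list. The genes fall into 8 lists by role. The first 5 lists (26 genes) act at the G1/S transition and in DNA synthesis and are called G1/S genes, and the other 3 lists (23 genes) act in mitosis and are called G2/M genes.

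Cells commit to division when cyclin-dependent kinases inactivate the RB family of repressors, which frees E2F factors to switch on the genes that build and fire replication origins. Genes needed later, for mitosis, are held silent in resting cells by the DREAM complex and are switched on by B-MYB and FOXM1, in many cases through a promoter element called the cell cycle genes homology region (CHR). CCAAT boxes, bound by the factor NF-Y, often accompany the CHR. Regulatory T (Treg) cells, the CD4 T cells that depend on the factor Foxp3 and restrain immune responses, divide when they are activated.

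The data are ATAC-seq, an assay that reads out where the transposase Tn5 can enter chromatin, of inflammation-experienced Treg cells from an adult male mouse aged 6 months with the genotype Foxp3CreERT2 x Rosa26YFP. In that genotype Foxp3 drives an inducible Cre and a yellow fluorescent reporter at Rosa26 records Cre activity. The labels name neither the inflammation nor the sorting of the cells, and their source field puts the origin of these primary cells in bone marrow. There were 2 technical replicates of 1 biological replicate in 1 group, and 3 peak lists given for both. The lists were taken to pool the 2 replicates. No spread between samples could be measured, no test was possible, and every value below rests on the authors' single value. Depth is unknown because no read counts were used here. All positions are GRCm38 (mm10). Distances of summits are from the nearest protein-coding start of the gene. Positions of sequence motifs are from the start in RefSeq's promoter table. A minus sign marks upstream. In a bulk assay, a region open in few cells and a region weakly open in many cannot be told apart, and neither can cycling and resting cells.

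The label Treg was checked against marker genes. All 6 Treg markers (Foxp3, Il2ra, Ctla4, Ikzf2, Tnfrsf4 and Entpd1) and 5 of 6 T cell markers had a promoter region. The share over all protein-coding genes was 49.7%. Cd4 had none at its promoter and 1 region nearby. None of the 4 myeloid markers had a promoter or another region. Among B cell markers, Cd79a and Ms4a1 had none and Pax5 had a promoter region with a fold enrichment of 15.4 and 1 other region.

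Nearly every cell cycle gene had an open promoter. A promoter region was present at 48 of the 49 genes (98.0%), against 49.7% of all protein-coding genes. The exception was Tk1, thymidine kinase of the nucleotide salvage pathway. Cell cycle promoters are rich in CpG, with a median observed over expected CpG ratio of 0.918 over the 40 members that matched RefSeq's promoter table, against 0.631 over all 16515 genes in it. Of the 5602 genes whose ratio lay at or above 0.783, the lower quartile of the members, 83.9% had a promoter region. The part of CpG content in the high share of open cell cycle promoters was not tested.

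The median promoter fold of these genes lay above that of all genes. The fold enrichment over background that the authors' peak caller gave to the highest peak of each region had a median of 19.96 over the 48 genes (interquartile range 16.9 to 24.1), against a median of 16.4 (12.4 to 20.5) over the 10861 genes with a promoter region. The fold exceeded the median of all genes at 37 of the 48 genes, where 50% of all genes lie above it by construction. It was in the upper 10% of all genes, at or above 24.0, at 13 genes, and in the lower 25%, at or below 12.4, at only 2, Mcm2 and Aurkb. The 6 highest were Mcm10 (33.6), Tpx2 (32.7), Ccnb2 (31.7), Mybl2 (30.7), Ube2c (29.2) and Cenpf (28.0), of which Tpx2, Ccnb2, Ube2c and Cenpf act in mitosis. The 6 lowest were Mcm2 (11.00), Aurkb (12.1), Chek1 (13.0), Plk1 (13.1), Foxm1 (13.1) and Gins1 (13.5). The Gins1 value belongs to the region at its protein-coding start. With the 5′ end of the gene record as the only start, its fold was 19.2, against a median of 16.4 over all genes. The region with that fold was not assigned to Gins1 by the main rule. The G2/M genes had a median of 21.4 (interquartile range 18.3 to 25.7) at 23 genes against 17.3 (14.2 to 22.2) at 25 G1/S genes, and these ranges overlapped widely. Above the median of all genes were 20 of the 23 G2/M genes and 17 of the 25 G1/S genes, and of the 13 in the upper 10%, 9 were G2/M genes. The place of the G1/S genes depends on how height is taken. With the fold of the peak nearest to a start in place of the highest peak, the medians were 14.4 at G1/S genes, 20.01 at G2/M genes and 15.1 over all genes, and 12 of the 25 G1/S genes and 19 of the 23 G2/M genes lay above the last. That choice lowered 9 genes by over 1.5 times. They were E2f1 (4.05 by the nearest peak), Ccne2 (3.26), E2f2 (3.03), Chek1 (3.91), Mcm7 (5.58), Nusap1 (5.67), Cdc45 (7.41), Brca1 (7.49) and Foxm1 (7.90), so the folds given for them below belong to a peak of the region that is not the one closest to a start.

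**Figure D1:**
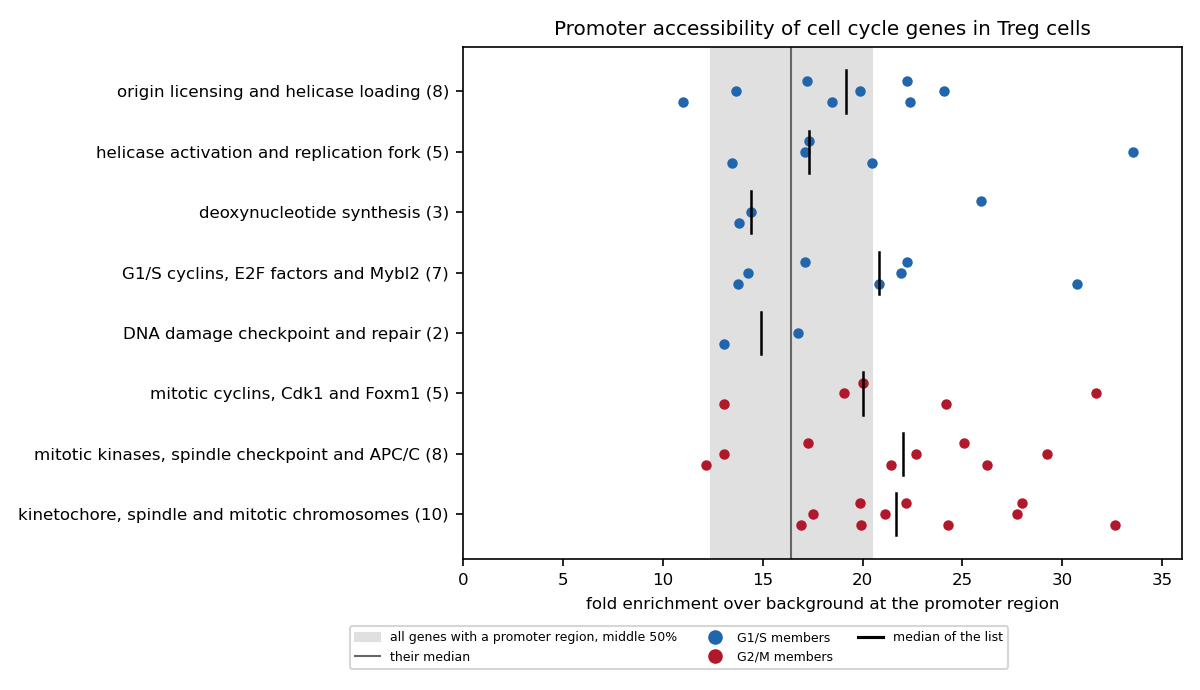
Fold enrichment over background of the promoter region (x axis, linear ratio) for each gene, 1 point a gene, by list (number of genes with a promoter region in parentheses). Short black lines are the medians of the lists, the grey line is the median of 16.4 over all genes with a promoter region and the grey band their interquartile range, 12.4 to 20.5. All 10 genes of the kinetochore and spindle list lie to the right of the grey line.

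The plot of fold by list shows that the lists overlap. Their medians ran from 14.4 to 22.0, while single genes of the licensing list ran from 11.00 to 24.1 and those of the mitotic kinase list from 12.1 to 29.2. The highest list medians were 22.0 for the mitotic kinases, spindle checkpoint and APC/C genes and 21.7 for the kinetochore and spindle genes. The lowest were 14.4 for deoxynucleotide synthesis, which rests on 3 genes, and 14.9 for the DNA damage genes, which rests on 2.

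In the ranked list, the authors set 2 sets of reads against each other, and whether these are the libraries is not known. At the 48 promoter peaks the −log10 p ran from 25.8 to 360 in the first set and from 30.7 to 336 in the second. The ratio of the larger to the smaller had a median of 1.15 and reached 1.45 at Foxm1, so none of the 48 differed between the sets by more than that factor. The main list keeps only peaks that passed a filter for agreement between sets of reads. The closeness is therefore partly fixed by that filter, and the ratio over all peaks was not computed.

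Origin licensing is the loading of the Mcm2 to Mcm7 helicase onto DNA by Cdc6 and Cdt1. All 8 genes of this list had a promoter region, with a median fold of 19.2, and 6 lay above the median of all genes. Mcm3 was the highest at 24.1 (chromosome 1, 20819723 to 20820728), followed by Cdc6 at 22.4, Mcm5 at 22.2 and Mcm6 at 19.9. Mcm7 carried 2 promoter regions, the higher with a fold of 18.5 and a width of 904 bp and the other with 8.27 and 663 bp. Mcm4 had a fold of 17.2 and, at 1400 bp, the widest promoter region of the set (chromosome 16, 15636695 to 15638094), which is shared with Prkdc, the catalytic subunit of the DNA-dependent protein kinase, on the other strand. Cdt1 combined a fold of 13.7 with the third greatest width, 1301 bp. Mcm2, a subunit of the same hexamer as Mcm3, had the lowest fold of all 48 genes, 11.00 over 593 bp (chromosome 6, 88898360 to 88898952). Subunits of 1 complex thus spanned folds from 11.00 to 24.1.

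Letters of the E2F motif were present in most promoters of this list. Motif letters were searched on both strands from 250 bases before to 50 after the start in the RefSeq table, in which 40 of the 49 genes were matched. Named only are Mcm4, Gins1, Gins2, Ccne2, Ccna2, Foxm1, Aurkb, Kif20a and Tpx2. The E2F letters were TTTCCCGC, TTTGGCGC, TTTCGCGC and TTTGCCGC. They were found in 6 of the 7 licensing genes in the table, Mcm2 being the one without, and in 8 of all 22 G1/S genes (36.4%), the others being E2f2 and E2f7. Of the 18 G2/M genes, Cdk1 held a match. Over all 16515 genes of the table the share was 3.32%, and over the 8624 of them with a promoter region it was 5.09%. None of the genes of helicase activation, nucleotide synthesis or DNA damage in the table had a match to these letters in this window. With the sequence at every protein-coding start, 12 of the 22 G1/S genes had a match, against 4.35% of all genes. The promoters of the 5 G1/S genes with the highest fold among those with a match are shown to let the reader see where the letters lie. They run from 200 bases before to 29 after the first transcribed base, 5′ to 3′ on the strand of the gene, from RefSeq's GRCm38.p6, with E2F matches on either strand in capitals. They are Mcm3 (chr1:20820283-20820512, minus strand), Cdc6 (chr11:98907951-98908180, plus), Mcm5 (chr8:75109309-75109538, plus), E2f7 (chr10:110745239-110745468, plus) and Mcm6 (chr1:128359676-128359905, minus).
Mcm3: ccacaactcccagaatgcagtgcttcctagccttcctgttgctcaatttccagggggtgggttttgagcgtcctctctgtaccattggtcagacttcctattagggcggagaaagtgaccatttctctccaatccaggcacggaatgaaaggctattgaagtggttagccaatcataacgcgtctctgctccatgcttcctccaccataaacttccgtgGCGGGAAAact
Cdc6: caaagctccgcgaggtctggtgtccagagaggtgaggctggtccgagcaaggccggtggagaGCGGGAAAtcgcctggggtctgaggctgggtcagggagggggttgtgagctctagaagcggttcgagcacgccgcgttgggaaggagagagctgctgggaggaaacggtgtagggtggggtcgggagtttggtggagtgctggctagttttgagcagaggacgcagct
Mcm5: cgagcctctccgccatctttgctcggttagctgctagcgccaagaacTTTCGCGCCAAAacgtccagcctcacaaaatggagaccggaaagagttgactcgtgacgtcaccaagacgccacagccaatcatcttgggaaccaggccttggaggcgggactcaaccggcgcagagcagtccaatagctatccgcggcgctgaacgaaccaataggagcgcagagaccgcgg
E2f7: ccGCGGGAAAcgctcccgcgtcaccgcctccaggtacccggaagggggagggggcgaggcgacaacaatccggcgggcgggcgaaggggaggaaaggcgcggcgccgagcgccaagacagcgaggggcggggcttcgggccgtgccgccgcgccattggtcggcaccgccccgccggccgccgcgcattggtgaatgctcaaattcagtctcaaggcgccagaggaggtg
Mcm6: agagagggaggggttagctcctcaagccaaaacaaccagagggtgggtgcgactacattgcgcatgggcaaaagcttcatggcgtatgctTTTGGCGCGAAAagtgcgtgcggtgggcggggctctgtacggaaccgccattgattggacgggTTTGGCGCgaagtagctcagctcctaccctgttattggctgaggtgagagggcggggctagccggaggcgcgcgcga
In Mcm5 the capitals are 2 matches on opposite strands that overlap, first bases at −153 and −149. Mcm6 holds such an overlapping pair at −110 and −106 and a further match at −47. The Mcm3 match begins after the start, at 19, with another at 38 beyond the bases shown, and those of Cdc6 and E2f7 lie at −138 and −198. At Cdc6 the RefSeq start is 98908151, while the summit of its promoter region was measured from a start at 98907801. A match of letters is a description and does not show that a factor binds.

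Helicase activation and the moving fork follow licensing. Mcm10, which helps to activate the loaded helicase, had the highest promoter fold of all 48 genes, 33.6 over 710 bp (chromosome 2, 5012488 to 5013197). Cdc45 and the GINS subunits Gins1 and Gins2 complete the active helicase, and their folds were 17.1, 13.5 and 20.5. Pcna, the sliding clamp that holds polymerases on DNA, had a fold of 17.3. The summit at Gins1 lay at 252 bp, the farthest downstream of the 48. It was measured from the protein-coding start at 150909594, inside a gene record that begins at 150905400. With that 5′ end as the only start, the Gins1 fold was 19.2, at a region that the main rule did not assign to Gins1. The Cdc45 region is shared with Ufd1 on the other strand.

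Among the nucleotide synthesis genes, the large and small subunits of ribonucleotide reductase differed. Rrm1, the large subunit, had a fold of 25.9 in a narrow region of 528 bp, and Rrm2, the small subunit, had a fold of 13.8 over 1103 bp. Tyms, thymidylate synthase, had a fold of 14.4. Tk1 (chromosome 11, 117815526 to 117826092, minus strand) had no promoter region in the main list, which is filtered by irreproducible discovery rate (IDR). The more inclusive pseudoreplicated list held a peak of 251 bp there (117825720 to 117825970) with a fold of 4.89 and its summit at 246 bp. In the ranked list its IDR was 0.0814, above the 0.05 that the lowest score in the thresholded list stands for, and its −log10 p was 11.7 and 9.70 in the 2 sets of reads. Tk1 thus had a weak peak next to its start, below the threshold. The Tk1 promoter (chr11:117825985-117826214, minus) is shown as that of the gene without a region, and it holds none of the E2F letters in this window.
Tk1: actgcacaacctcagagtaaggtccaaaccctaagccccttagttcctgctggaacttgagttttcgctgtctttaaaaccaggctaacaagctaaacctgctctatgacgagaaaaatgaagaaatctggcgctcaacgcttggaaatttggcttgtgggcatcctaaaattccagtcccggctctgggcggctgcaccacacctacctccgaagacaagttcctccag
Accessible regions assigned to Tk1 lay farther upstream inside Afmid. A region at −2318 bp lies in an intron with a fold of 5.91, and one at −6516 bp overlaps an exon with a fold of 16.5.

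The G1/S regulators covered a wide range. Of the 34 regions away from promoters, 13 belonged to this list of 7 genes, a mean of 1.86 against 0.74 over all genes. Ccne1 held 5 of them and E2f7 held 4. The stretch in which a region would be assigned to a gene was 80.1 kb at Ccne1 and 187 kb at E2f7. Its median over all genes was 46.5 kb, and its part in the count was not tested. Mybl2, which encodes B-MYB, had a promoter fold of 30.7 over 682 bp. E2f1, an activator, had 22.2, and the atypical repressors E2f8 and E2f7, which shut the E2F programme down late in S phase, had 21.9 and 20.8. E2f2, another activator, had 14.2. The cyclins that partner Cdk2 at the G1/S transition had folds of 17.1 (Ccne2) and 13.8 (Ccne1). The Brca1 region, at a gene of DNA repair, is shared with Nbr1. Its highest summit, with a fold of 16.8, lay at −824 bp, on the Nbr1 side, and Brca1 is the one gene of the 48 with its summit farther than 300 bp from the start. Chek1, the checkpoint kinase that responds to stalled forks, had a fold of 13.0.

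Mitotic cyclins and Cdk1, the kinase that drives entry into mitosis, came next. Ccnb2 had a fold of 31.7 (chromosome 9, 70421302 to 70422079), Cdk1 had 24.2, Ccnb1 had 20.01 and Ccna2 had 19.1. Ccnb1 and Ccnb2 encode the B-type cyclins that bind Cdk1, and Ccnb2 was the higher. Foxm1, the factor that switches on G2/M genes, had 13.1 at a region shared with Rhno1.

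The genes of the mitotic kinases, the spindle checkpoint and the anaphase-promoting complex ranged from high to low. Ube2c, the ubiquitin-conjugating enzyme of the complex, had a fold of 29.2, and its activator Cdc20 had 25.1. The checkpoint genes Bub1b and Bub1 had 26.2 and 22.7. The kinases differed more, with 21.4 at Aurka, 13.1 at Plk1 and 12.1 at Aurkb. Birc5, which with Aurkb belongs to the chromosomal passenger complex, had 17.3. Aurkb had the narrowest promoter region of the 48, 471 bp, and Plk1 the second widest, 1361 bp with 6 summits, so a low fold came with both narrow and wide regions.

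All 10 kinetochore, spindle and mitotic chromosome genes lay above the median of all genes by their highest peak. By the peak nearest to a start 9 did, without Nusap1, and with the lower 50% of all regions left out 8 did, without Kif23 and Mki67. Tpx2, a spindle assembly factor, had 32.7 over 564 bp, the third narrowest region after Aurkb and Rrm1. Cenpf, a kinetochore protein, had 28.0, and Nusap1, a microtubule-binding spindle protein, had 27.8. Cenpa, the histone H3 variant of centromeres, had 24.3 and the kinetochore motor Cenpe had 22.2. The mitotic kinesins Kif20a, Kif11 and Kif23 had 21.1, 19.9 and 17.5. Top2a, the topoisomerase that untangles chromosomes, had 19.9, and Mki67, the proliferation marker, had 16.9, the lowest of this list.

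CHR letters (TTTGAA and TTCGAA) were present in most G2/M promoters. They were found in 14 of 18 G2/M genes (77.8%), all except Ccnb1, Birc5, Cenpe and Nusap1. The share was 5 of 22 (22.7%) among G1/S genes (Mcm2, Mcm7, Cdc45, E2f2 and E2f8), 19.4% over all genes of the table and 16.4% over those with a promoter region. In the 100 bp on either side of the summit, the letters were present in 11 of 18 G2/M genes (61.1%), 1 of 21 G1/S genes (4.76%) and 7.46% of all genes, so the G1/S share lay above that of all genes in one window and below it in the other. TTCGAA reads the same on both strands and gives no direction. Of the 21 matches in G2/M promoters 4 were of that kind, and of the other 17, 14 were on the strand of the gene. In G1/S promoters it was 3 of 5. Some genes, such as Top2a, gave several of these matches, and no share over all genes was computed. The matches gathered near the start. From 60 bases before to 20 after it, a window chosen after the positions had been seen, 10 of the 18 G2/M genes held a match (Cdk1, Ccnb2, Bub1, Cdc20, Ube2c, Cenpa, Cenpf, Kif11, Kif23 and Top2a), against 3 of 22 G1/S genes and 4.54% of all genes. The match nearest to the start had a median first base at 2 over the 14 G2/M genes with a match.

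CCAAT boxes were common in both groups. At least 1 CCAAT was present in 16 of 18 G2/M genes (88.9%) and 14 of 22 G1/S genes (63.6%), against 42.1% of all genes and 43.9% of those with a promoter region. At least 2 were present in 11 of the 18 and in 9 of the 22, which is 20 of 40 genes (50%) against 16.2% of all genes and 19.99% of those with a promoter region. Neighbouring boxes on the same strand, counted between first bases, gave 30 spacings in 19 genes, from 11 to 128 bases with a median of 40.5. Of these, 8 in 6 genes were 31 to 33 bases and 10 in 9 genes were 40 to 47, ranges chosen after the values were seen, and no share over all genes was computed. The distance was 33 and again 33 in Ccnb2, and 32 in Ccnb1, Aurka and E2f7 and for the nearer pair in Cdk1. It was 31 for a pair on each strand in Ube2c, where the matches at −186 and −183 overlap on opposite strands. It was 45 in Cdc20, 47 in Mki67 and 61 in Cenpf.

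The 5 G2/M promoters with the highest fold among those that hold both motifs are shown in the same way, with CHR and CCAAT matches on either strand in capitals. They are Ccnb2 (chr9:70421525-70421754, minus), Ube2c (chr2:164769729-164769958, plus), Cenpf (chr1:189688057-189688286, minus), Bub1b (chr2:118598011-118598240, plus) and Cdc20 (chr4:118437314-118437543, minus).
Ccnb2: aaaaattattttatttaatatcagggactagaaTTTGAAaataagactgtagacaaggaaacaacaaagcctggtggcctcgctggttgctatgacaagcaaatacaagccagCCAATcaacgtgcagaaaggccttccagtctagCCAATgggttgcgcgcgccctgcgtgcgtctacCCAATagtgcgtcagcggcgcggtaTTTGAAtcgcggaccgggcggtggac
Ube2c: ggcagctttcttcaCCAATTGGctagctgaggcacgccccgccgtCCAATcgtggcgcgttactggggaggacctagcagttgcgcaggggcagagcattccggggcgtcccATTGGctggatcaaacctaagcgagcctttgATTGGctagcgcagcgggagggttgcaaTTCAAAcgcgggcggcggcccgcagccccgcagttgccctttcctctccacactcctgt
Cenpf: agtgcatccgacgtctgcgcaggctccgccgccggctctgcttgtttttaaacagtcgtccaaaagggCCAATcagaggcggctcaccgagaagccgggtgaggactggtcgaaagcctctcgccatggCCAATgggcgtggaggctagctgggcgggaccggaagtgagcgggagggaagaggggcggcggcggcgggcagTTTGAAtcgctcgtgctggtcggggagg
Bub1b: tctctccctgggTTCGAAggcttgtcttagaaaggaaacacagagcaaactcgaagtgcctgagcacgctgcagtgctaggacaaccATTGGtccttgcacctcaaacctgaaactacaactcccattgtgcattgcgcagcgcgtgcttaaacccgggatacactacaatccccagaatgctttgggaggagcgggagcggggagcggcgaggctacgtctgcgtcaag
Cdc20: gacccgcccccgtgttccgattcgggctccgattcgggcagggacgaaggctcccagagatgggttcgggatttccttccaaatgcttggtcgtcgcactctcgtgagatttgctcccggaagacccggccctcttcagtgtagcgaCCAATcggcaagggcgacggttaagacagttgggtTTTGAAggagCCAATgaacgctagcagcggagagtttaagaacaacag
In Ccnb2, CCAAT at −87, −54 and −21 precedes a CHR at 4, and a further CHR lies upstream at −167. In Cenpf, CCAAT at −132 and −71 precedes a CHR at 2. In Ube2c the CHR at −29 reads on the opposite strand. In Cdc20 the CHR at −18 lies between CCAAT at −53 and −8. Bub1b differs from these, with a CHR at −188, CCAAT at −113 and a further CHR at 40, beyond the bases shown.

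**Figure D2:**
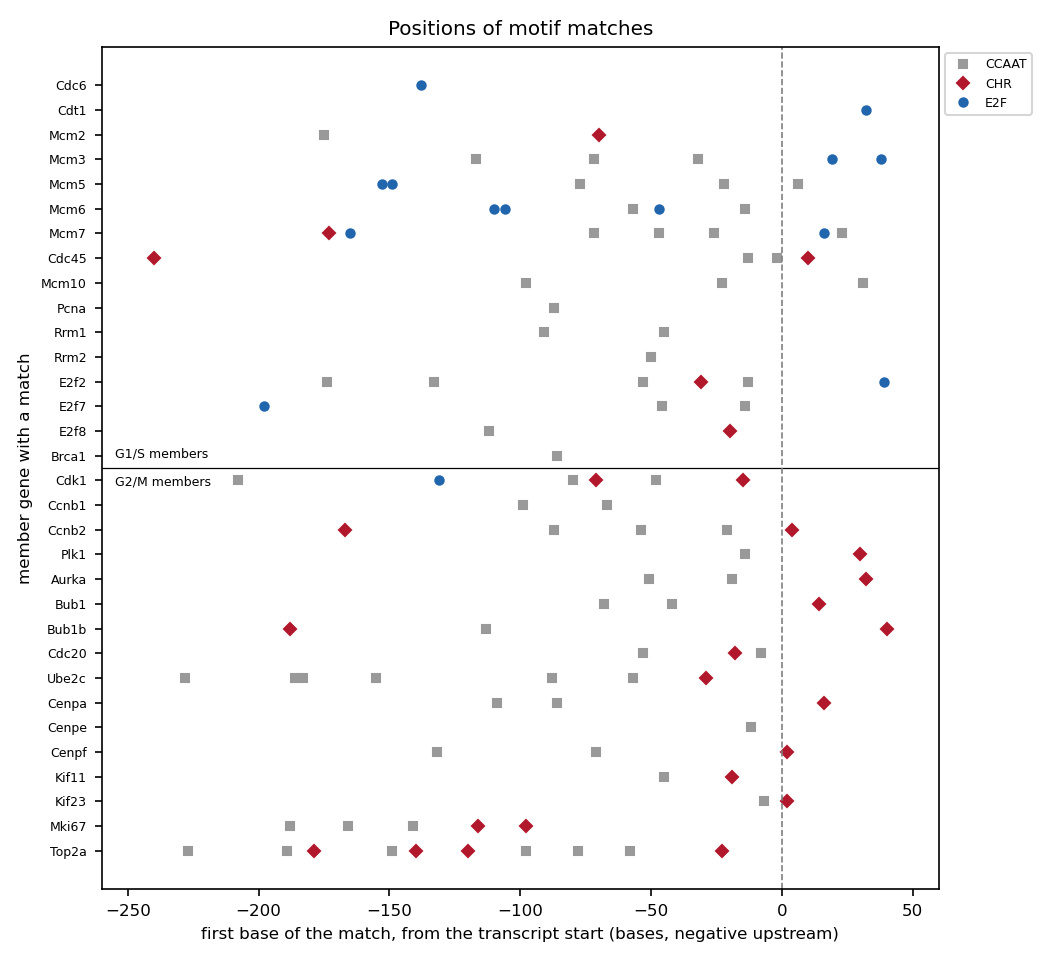
First base of each match (x axis, bases from the transcript start, negative upstream) in the RefSeq promoters of the genes with at least 1 match, 1 line a gene. Grey squares are CCAAT, red diamonds CHR and blue circles E2F, and the dashed line is the start. E2F matches lie almost wholly in the G1/S genes above the horizontal line, and CHR matches of the G2/M genes below it crowd around the start.

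The letters of general promoter elements were counted in the same window. The SP/KLF box GGGCGG was found in 32 of 40 genes, 17 G1/S and 15 G2/M, against 51% of all genes and 70.5% of those with a promoter region. TATAAA was found in 1 gene, Cdc45, against 14.3% of all genes and 8.07% of those with a promoter region.

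**Figure D3:**
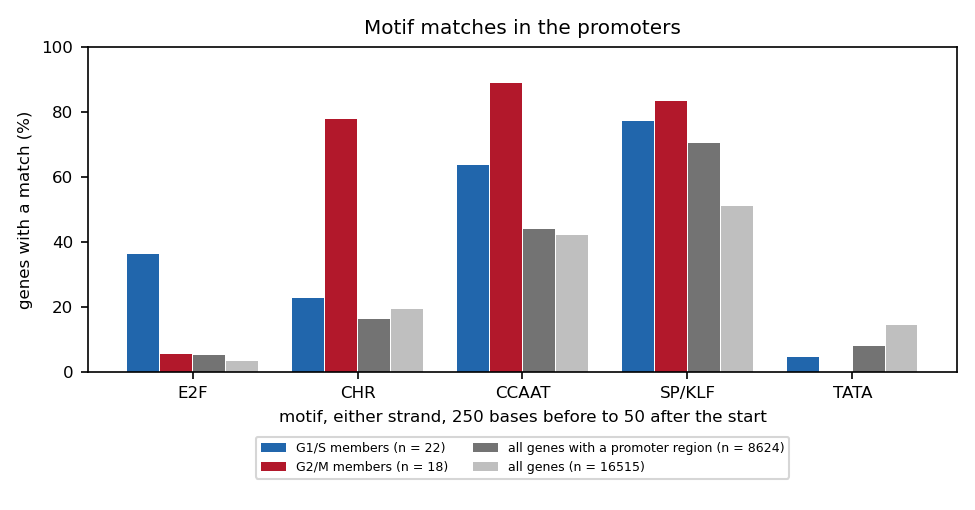
Share of genes with a match (y axis, percent) for 5 motifs (x axis), in 22 G1/S genes, 18 G2/M genes, 8624 genes with a promoter region and all 16515 genes of the RefSeq promoter table. The bars carry no error because they count letters in sequence. For E2F the G1/S bar stands highest at 36.4%, and for CHR the G2/M bar at 77.8%.

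The summits lay just upstream of the start. The highest summit had a median position of −72.5 bp over the 48 genes against −40 bp over all genes with a promoter region. It lay 0 to 200 bp upstream of a start at 38 genes (79.2%) against 64.1% of all genes. More than 1 summit was present at 38 genes (79.2%) against 83.9% of all genes, so their promoter regions were about as often composite as others. The median width was 900 bp against 948 bp, with 1011 bp at G1/S genes and 812 bp at G2/M genes. The G2/M promoter regions were therefore both narrower and higher at the median. Regions wide on the upstream side, such as that of Ccne1 (1281 bp), are visible in the plot of their extent.

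**Figure D4:**
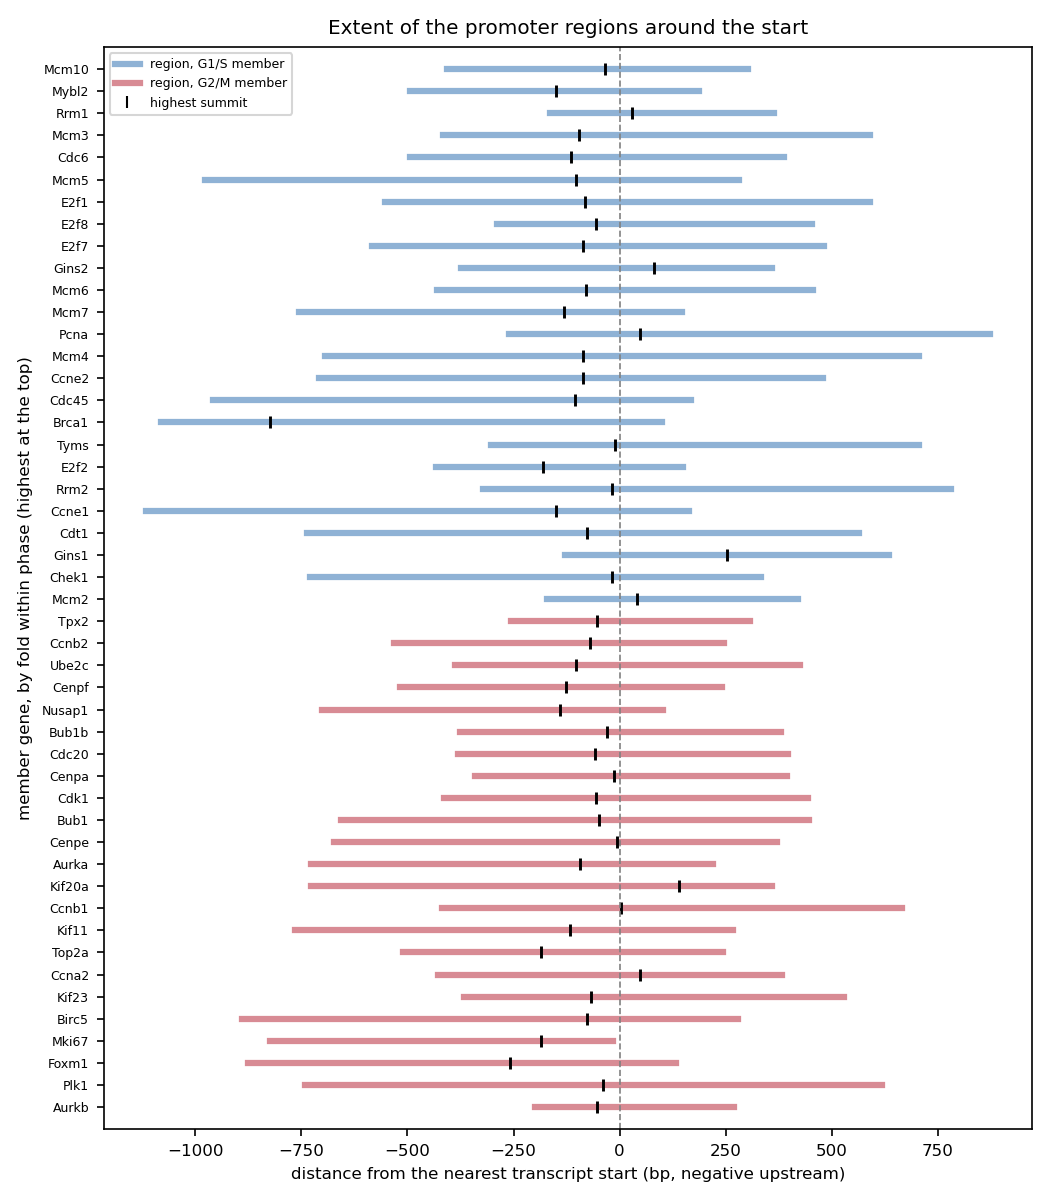
Extent of the highest promoter region of each of the 48 genes (x axis, bp from the nearest transcript start, negative upstream), ordered within G1/S (blue) and G2/M (red) by fold, highest at the top. Black ticks are the highest summits, most of which lie just left of the dashed start line, with Brca1 at −824 bp the exception farthest upstream.

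Some of these promoters serve a neighbour too. The promoter region also overlapped the start window of a coding gene on the other strand at 8 of 48 genes (16.7%) against 21.1% of all genes, a share near the background. The pairs were Mcm4 with Prkdc, Mcm7 with Ap4m1, Cdc45 with Ufd1, Brca1 with Nbr1, Foxm1 with Rhno1, Aurka with Cstf1, Kif20a with Brd8 and Nusap1 with Oip5. At these genes the fold cannot be assigned to either member of the pair.

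Most of the genes had no region away from the promoter. At least 1 other region was assigned to 21 of the 49 genes (42.9%) against 31.6% of all genes, and 3 or more to 3 genes (6.12%) against 8.8%. None was assigned to 28 genes, 1 to 14 and 2 to Mcm6, Rrm2, Tk1 and E2f2. The G1/S genes held 26 of the 34 other regions and the G2/M genes 8, never more than 1 a gene. The territory in which a region would be assigned to a gene had a median of 38.2 kb at G1/S genes, 29.1 kb at G2/M genes and 46.5 kb over all genes, and its part in these counts was not tested. Assignment to the nearest start does not show that a region acts on that gene.

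Of the 34 other regions, 17 were intergenic, 8 lay in an intron and 1 in an exon of the gene itself, and 8 in introns or exons of other genes. None overlapped the start window of another coding gene, which follows largely from assigning each summit to its nearest coding start. Of the 34, 3 overlapped a start window of a noncoding gene. Their median fold was 13.1, with a range of 3.62 to 28.5, and their median width was 518 bp. The medians over all genes were 11.96 and 544 bp. In 8 of the 34 the fold was at or above that of the promoter of the same gene. The regions of Tk1 had no promoter fold to be compared with, and the share over all genes was not computed.

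Ccne1, the gene of cyclin E1, had the most, 5 intergenic regions. Their folds were 14.7 at −23895 bp, and 18.7, 3.62, 16.4 and 8.34 at 12384, 18265, 21873 and 35675 bp downstream of the start. In 3 of them the fold exceeded the 13.8 of the Ccne1 promoter. The region with a fold of 16.4 was the widest of the 5, at 1018 bp (chromosome 7, 38084536 to 38085553).

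E2f7 had 4 other regions, with folds of 17.7 at −17479 bp, 14.9 at −11922 bp, 12.7 in its own intron at 15196 bp and 13.1 at 49135 bp, all below its promoter. Gins1 had 3, all in its own introns, with folds of 5.53, 10.1 and 11.7, all below the 13.5 of the highest peak of its promoter. The promoter peak nearest to a start had a fold of 9.81, which is below the last pair.

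Among the G2/M genes, some single regions stood as high as the promoter of the same gene and others did not. The highest, with a fold of 28.5, lay at −24025 bp from Nusap1 and overlaps the start window of the noncoding gene 1700020I14Rik. A region with a fold of 26.7 lay over an exon of Kif20a, at 2368 bp from the nearest of its starts, where the gene record of Cdc23 also lies. Bub1b had a region with a fold of 24.9 at 22562 bp in its own intron, and Mki67 had one with a fold of 19.1, 4 summits and a width of 1176 bp at −19495 bp. The Bub1b region lay below its promoter at 26.2. Also below their own promoters were the regions of Cdk1 (14.2), Cenpe (14.0), Cenpf (7.60) and Kif23 (8.31). The folds of the Nusap1, Kif20a and Mki67 regions exceeded the 27.8, 21.1 and 16.9 of their promoters. Rrm2, a G1/S gene, likewise had a region with a fold of 18.2 at −10974 bp, above its promoter at 13.8.

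**Figure D5:**
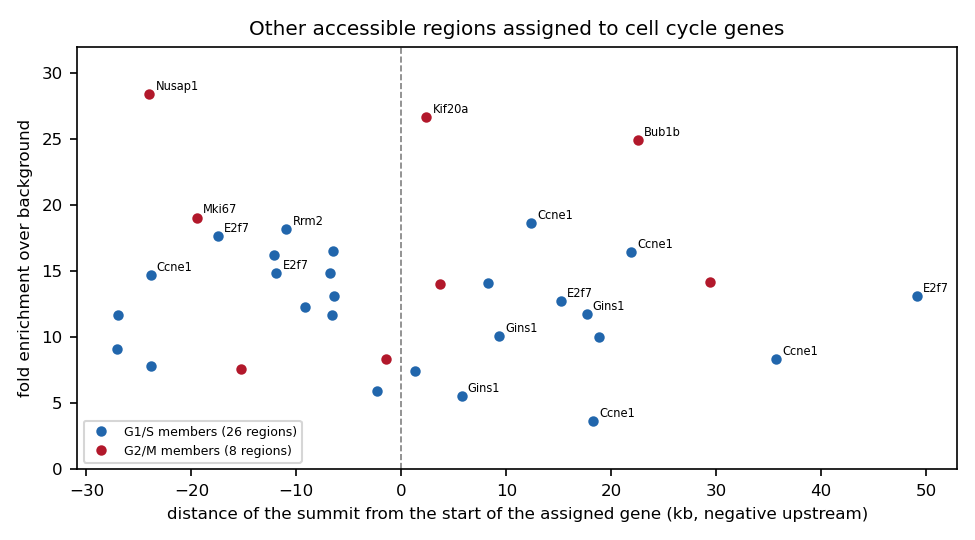
Fold enrichment (y axis, linear ratio) of the 34 other regions against the distance of their summit from the start of the assigned gene (x axis, kb, negative upstream), 26 at G1/S genes in blue and 8 at G2/M genes in red. Labelled are regions of the genes with 3 or more, and the highest others, with Nusap1 at the top.

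Further cell cycle genes, from lists chosen for their role, were set beside these. Of 57 further cell cycle genes, 56 had a promoter region. The exception was Ccnd1, a D-type cyclin, with 1 region nearby. The G1 cyclins and their kinases (5 of 6 with a promoter region) had a median fold of 11.1. None of the 5 lay above the median of all genes. The list had a mean of 3 other regions, against 0.74 over all genes. Its median territory was 106 kb against 46.5 kb over all genes, and the part of territory in the count was not tested. Ccnd2 had a promoter fold of 6.39 and 7 other regions, and Ccnd3 had 11.1 and 6. The 7 inhibitors of cyclin-dependent kinases had a median of 10.2, with 9.01 and 5 other regions at Cdkn1b. The 13 pocket proteins, other E2F factors and DREAM subunits had a median of 14.2, with 6 other regions at Rbl2. The 23 genes of origin recognition, polymerases and clamp loading had a median of 22.0, and 19 of them lay above the median of all genes, beside 37 of 48 in the set itself. The 8 other mitotic genes had a median of 19.3.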

How the data were processed

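ATAC-seq was deposited for 2 technical replicates of 1 biological replicate, as 3 peak lists on mm10 that the text files deposited with the samples give for both, so values per library were not analysed here and the depth is unknown. The aligner, peak caller, read shift and IDR cutoff were not given in the sources used here. Per peak, the authors deposited a fold (a linear ratio over a background that is not stated), a −log10 p-value, a score whose lowest value in the thresholded list, 540, matches an IDR of 0.05, and a summit. These units were read from the values and the column order. Whether the sets of reads in the ranked list are libraries is not stated.

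Overlapping or touching peaks of the IDR-thresholded list were merged with Python 3.11.15 (pandas 2.3.3, numpy 2.4.6, plots with matplotlib 3.10.9). A region took the fold and summit of its highest peak, and a gene those of its highest promoter region. Starts came from GENCODE M21 and promoter sequences from RefSeq (GRCm38.p6), where 42 entries of 40 members equalled the genome and 32 lay within 50 bp of a GENCODE start. The computation was tested on simulated data. The members and lists were chosen with earlier results of these data known. Described singly were the 6 highest and 6 lowest promoter folds, genes without a promoter region or with 3 or more other regions, the 3 widest and narrowest regions, shared promoters and genes with a printed sequence; other genes were added after their values were seen. Alternatives changed the list, windows, assignment and sequence window. A marker gene of the lists is not reported here.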

Additional observations from a re-analysis of the deposited data

How the results depend on the processing

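The median over all members stayed above that of all genes in each setting run. The G1/S median did not: it was 18.5 against 18.6 of all genes in the upper 50% of regions by fold, and 14.4 against 15.1 with the peak nearest to a start. The CHR share of G1/S genes also changed sides, from 22.7% against 19.4% of all genes to 4.76% against 7.46% around the summit and 22.7% against 29.4% at every protein-coding start. At G2/M genes it was 11 and 16 of 18 there. With the upper 50% of regions by fold, 13 genes had at least 1 other region in place of 21. With the sequence 100 bp on either side of the summit, 5 of 21 G1/S genes held E2F letters in place of 8 of 22, against 3.36% of all genes. With the sequence at every protein-coding start it was 12 of 22, against 4.35%. Promoter regions were found at 49 genes in the pseudoreplicated list, with Tk1 gained, and at 43 in the upper 50%, without Aurkb, Chek1, Foxm1, Mcm2 and Plk1. The median fold was 17.3 at G1/S and 21.4 at G2/M genes in most settings. The peak nearest to a start gave 20.01 at G2/M genes. The G1/S to G2/M contrast of these medians was added after seeing the data. Taking the peak nearest to a start moved 9 single promoter folds by over 1.5 times, from E2f1 (22.2 to 4.05) to Foxm1 (13.1 to 7.90). Leaving out a replicate was not run, since the lists are given for both libraries and were taken to pool them, and no list holds an error. No paired analysis was possible because there was 1 group. With no depth or control library, a region not listed was not detectable at the threshold, which does not show that it is closed.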
